A study of Mus musculus with 24 samples.

Results

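Visual cortex of mice lacking the miR-132/212 locus through the germ line at postnatal day 28 (P28-KO, 4 libraries) was compared with visual cortex of wild-type mice at postnatal day 10 (P10-WT, 4 libraries). These are 8 of the 12 libraries of messenger RNA in the series, chosen by the genotype and age that name them, and the remaining 4 came from wild-type cortex at day 28 (P28-WT). All mice were C57BL6J of both sexes with normal rearing, and the deletion is carried by every cell of the null mice, glia and vessels included. Levels are RPKM, a gene's reads scaled to its length and to the mapped reads of the library, and 13959 of the 23881 listed genes had a mean of at least 0.5 RPKM over the 8 libraries and were tested. Fold changes are differences of log2(RPKM + 0.1), P28-KO minus P10-WT unless another pair is named, and a gene is called higher or lower at a Benjamini-Hochberg adjusted p under 0.05 from limma, two-sided. Age and genotype both differ between P28-KO and P10-WT, so that in this comparison alone their parts cannot be told apart. The difference between P28-KO and P28-WT, at one age, was therefore fitted as well, and the fold change of P28-WT against P10-WT, which rests on the same P10-WT libraries, is given for some genes as a value.

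MicroRNAs are short RNAs that pair through their seed, the bases near their 5′ end, with sites in the 3′ untranslated region of messenger RNAs and lower the level or translation of those messages. The neighbouring genes Mir132 and Mir212 are transcribed together, and in cortical neurons their transcription is induced by activity through the factor CREB. Between the ages sampled here, mice open their eyes, cortical axons become myelinated, growing axons give way to stable synapses, and inhibitory circuits of the visual cortex mature.

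The locus deleted in P28-KO lies on mouse chromosome 11 (build GRCm38, plus strand), with Mir212 from 75173388 to 75173478 and Mir132 from 75173682 to 75173747. The mature sequences from RefSeq are shown because their seeds, bases 2 to 8 in capitals, define the target sites used below. The 3′ arms of both microRNAs share one seed, while the 5′ arms each have their own.
mmu-miR-132-3p (chr11:75173723-75173744): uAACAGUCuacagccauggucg
mmu-miR-212-3p (chr11:75173443-75173464): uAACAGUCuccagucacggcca
mmu-miR-132-5p (chr11:75173686-75173707): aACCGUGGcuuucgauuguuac
mmu-miR-212-5p (chr11:75173403-75173425): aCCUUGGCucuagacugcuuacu
Mir132 and Mir212 were listed at 0 in all 4 P28-KO libraries. Mir132 was at 14.4, 9.74, 13.1 and 11.2 RPKM in the 4 P28-WT libraries and at 0.144, 0.130, 0.980 and 1.19 in the 4 P10-WT libraries, and Mir212 was at 17.5, 19.1, 24.7 and 13.96 RPKM in P28-WT and at 0.372, 0.457, 1.43 and 0.921 in P10-WT. The null libraries therefore match their labels, and these values, from messenger RNA libraries, do not measure the mature microRNAs. In P28-KO against P28-WT both were called lower (adjusted p = 1.97e-09 for both, limma), and no fold is given for a group listed at 0. Neither gene reached the mean of 0.5 RPKM over the P28-KO and P10-WT libraries, so neither was tested there.

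The table holds no read counts, and depth is unknown, so no counting interval can be given. Between 17358 and 17881 genes were above 0 in P28-KO libraries and between 17684 and 19006 in P10-WT libraries, and RPKM summed to 256643 to 274763 in P28-KO and to 265014 to 269601 in P10-WT. The first principal component of the 8 libraries held 78.7% of the variance and parted the groups, with P28-KO at 41.3 to 49.2, P10-WT libraries 2 to 4 at -41.0 to -39.3 and P10-WT library 1 beyond them at -63.5. Both the X-linked Xist and the Y-linked Ddx3y were above 1 RPKM in P28-KO libraries 1 and 3 and in P10-WT library 2. P-values measure the spread between libraries, of which the study counts as many as mice in each genotype. Whether each library holds RNA of only 1 mouse was not tested. The sample titles give no sex, and the sexes in a library may differ between libraries.

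In the cortex without miR-132/212, genes of myelin and neuronal activity showed the largest increases over day 10 by list median, and genes of axon growth lay mostly below day 10. Of the 13959 genes tested, 3393 (24.3%) were higher in P28-KO than in P10-WT and 4752 (34%) were lower, together 58.3%, and in 54.8% no P28-KO library overlapped a P10-WT library. The median log2 fold change was 0.64 over the higher genes, -0.57 over the lower genes and -0.08 over all genes tested. At least 2-fold changes were seen in 962 higher and 966 lower genes, and at least 8-fold changes in 62 higher and 36 lower genes. Side by side, 3719 (26.7%) of 13927 genes were higher and 4344 (31.2%) lower in P28-WT than in P10-WT. Without P10-WT library 1, 3312 genes were higher and 4654 lower in P28-KO. In the plot of mean levels, the called genes lie on both sides of the diagonal at all levels, and the labelled genes are those with the largest changes.

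**Figure D1:**
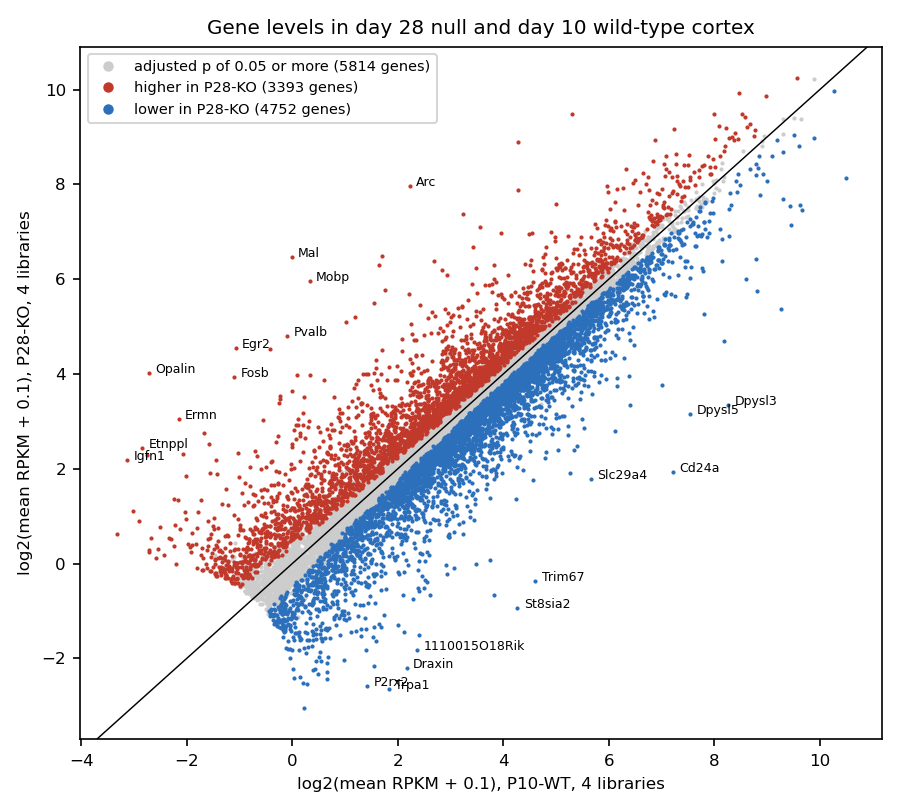
Each point is 1 of the 13959 genes tested, at log2(mean RPKM + 0.1) of 4 P10-WT libraries (x axis) and of 4 P28-KO libraries (y axis), red where higher in P28-KO (3393 genes), blue where lower (4752) and grey where not called (5814) by limma, with equal levels on the line. The 10 higher and 10 lower genes with the largest fold changes are named, with Mal, Mobp and Arc above the line and Cd24a, Dpysl3 and Dpysl5 below it.

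The 10 genes with the largest increases hold 4 genes of myelin or oligodendrocytes, 3 immediate early genes, Pvalb, Igfn1 and Etnppl. Opalin (chr19:41063420-41077113), which encodes a membrane protein of oligodendrocytes, was at 15.5, 20.7, 13.5 and 14.5 RPKM in P28-KO against 0, 0.112, 0.0994 and 0 in P10-WT, a log2 fold change of 6.80 (SE 0.27, adjusted p = 5.67e-08 from limma). Its P10-WT values are near or below the 0.1 added before the log, which limits the fold change. Mal (chr2:127633226-127656695), a proteolipid of compact myelin, was at 83.1, 93.6, 88.8 and 87.9 RPKM against 0.780, 1.02, 0.870 and 0.891, a log2 fold change of 6.48 (SE 0.09, adjusted p = 1.66e-11). Mobp, another myelin protein gene, was at 57.6, 67.2, 64.1 and 59.7 RPKM against 0.174, 2.14, 1.68 and 0.630, and Ermn, a cytoskeletal protein gene of myelinating cells, was at 7.88, 7.43, 9.12 and 8.15 against 0.0694, 0.235, 0.128 and 0.0704. For each of these 4 genes every null library lay far above every P10-WT library. Only genes without overlap between the groups were ranked here, so that separation follows from the choice and is a description. Etnppl, a phospholyase gene of astrocytes, was at 9.19, 5.29, 4.37 and 2.37 RPKM in P28-KO and at 0.0200, 0, 0.105 and 0.0336 in P10-WT. Igfn1 was at 5.44, 3.78, 4.96 and 3.65 RPKM against 0.00974, 0.00816, 0.0283 and 0.0106, with library 3 the highest in P10-WT. The fold changes of these 2 genes, 5.17 and 5.30, again rest on day 10 levels close to 0.

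Among the 10 genes with the largest decreases, Cd24a, Dpysl3, Dpysl5, St8sia2 and Draxin are genes of growing axons and young neurons. Cd24a, a surface protein of young neurons, was at 3.58, 3.82, 3.03 and 4.44 RPKM in P28-KO against 230.2, 128, 117.2 and 118 in P10-WT, a log2 fold change of -5.23 (SE 0.20, adjusted p = 4.57e-08, limma). St8sia2, the enzyme that adds polysialic acid to the adhesion molecule NCAM, was at 0.278, 0.494, 0.480 and 0.451 RPKM against 46.02, 8.81, 8.64 and 13.2, and Trim67, a ubiquitin ligase gene of the growth cone, at 0.482, 0.682, 0.714 and 0.837 against 48.7, 14.5, 15.6 and 18.2. P10-WT library 1 was the highest of its group for all 3 genes, and no P28-KO library came near any P10-WT library. Genes with overlapping groups were left out of this ranking as well, so the separation is a description. Slc29a4, a monoamine transporter gene, was at 2.50, 3.95, 3.01 and 3.99 RPKM against 62.1, 43.2, 49.8 and 46.99. Draxin, a repulsive guidance protein gene, was at 0.0939, 0.211, 0.0870 and 0.0716 RPKM against 12.1, 1.53, 1.55 and 2.43, so that its day 10 mean leans on library 1. Without P10-WT library 1 the log2 fold change was -5.00 for Cd24a, -4.29 for St8sia2 and -3.17 for Draxin, against -5.23, -4.84 and -3.85 with it. The ion channel genes Trpa1 and P2rx2 were at most 0.115 RPKM in P28-KO against at least 1.64 in P10-WT, and the uncharacterised gene 1110015O18Rik was at 0.239, 0.148, 0.166 and 0.184 against 7.27, 3.74, 3.80 and 5.38. In P28-WT the log2 fold changes of these genes against P10-WT were, for example, -5.11 for Cd24a, -4.62 for St8sia2 and -3.63 for Slc29a4.

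The gene lists of cell types and programmes moved to different extents, from a median log2 fold change of 3.77 for myelin to -1.65 for the cell cycle, beside -0.08 over all genes tested. The low end depends on genes of low level. At a mean of at least 2 RPKM the cell cycle median was -0.74, above -1.11 for axon growth genes. With 1 added before the log these medians were -0.89 and -0.999. In the plot of gene lists, 10 of the 30 lists had at least 50% of their measured members higher in P28-KO and 8 had at least 50% lower. Over the alternative fits these numbers ran from 10 to 14 and from 8 to 10. Most members named below were taken by smallest p, so groups that lie apart in them follow in part from that choice. Over all genes tested, the groups did not overlap in 54.8%.

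**Figure D2:**
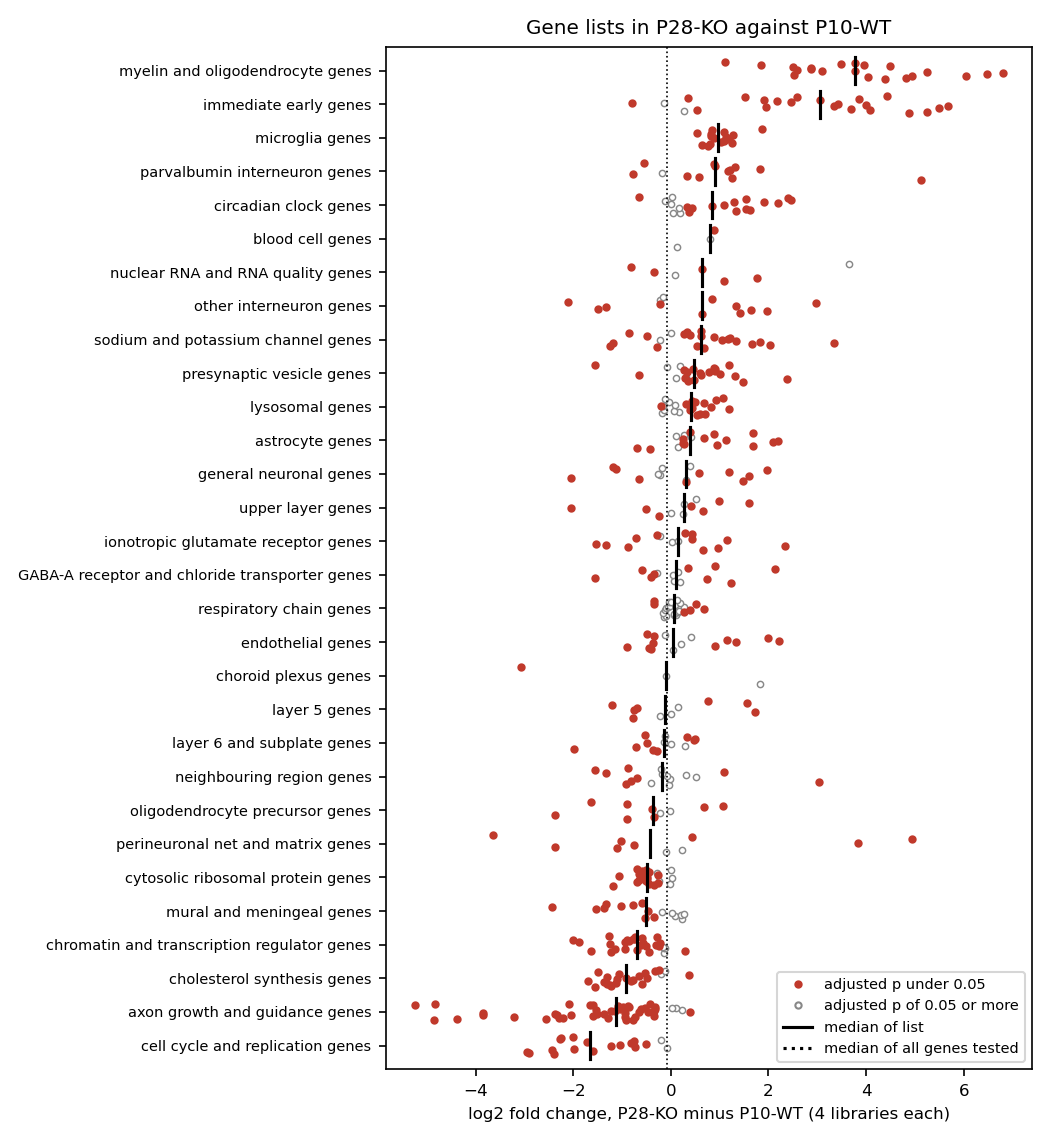
Each point is a gene at its log2 fold change, P28-KO minus P10-WT (4 libraries each), in 1 of 30 gene lists, filled red at an adjusted p under 0.05 from limma and open otherwise. Black bars are list medians, from 3.77 for myelin and oligodendrocyte genes to -1.65 for cell cycle genes, and the dotted line is the median of all genes tested (-0.08).

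Myelin genes were all far higher in the null cortex at day 28 than in wild-type cortex at day 10. All 21 measured genes of myelin and oligodendrocytes were called higher, with a median log2 fold change of 3.77, and no library of one group overlapped the other in any of them. Over all genes tested, 24.3% were higher and 54.8% did not overlap. Mbp, myelin basic protein, was at 598, 859.9, 742 and 657 RPKM in P28-KO, 956, 1279, 983 and 865 in P28-WT and 12.6, 57.7, 56.9 and 31.1 in P10-WT. The null libraries of Mbp thus lay far above P10-WT, and each was below every P28-WT library. For Mbp the log2 fold change was 4.39 against P10-WT (SE 0.40, adjusted p = 8.74e-06, limma) and -0.51 against P28-WT (SE 0.14, adjusted p = 0.382), so the second difference did not pass. Mog, a glycoprotein of the outer myelin surface, was at 34.4, 39.4, 38.4 and 35.6 RPKM in P28-KO against 2.70, 2.41, 2.08 and 1.54 in P10-WT, and Trf, transferrin made by oligodendrocytes, at 46.9, 52.3, 55.2 and 50.7 against 3.93, 4.88, 4.02 and 5.28. Summed over the list, RPKM ran from 1638 to 2057 in P28-KO, 2130 to 2954 in P28-WT and 59.4 to 161 in P10-WT. Against P28-WT the median log2 difference of the 21 genes was -0.25, none was called, and 11 were lower at an unadjusted p under 0.05, beside 8.11% of all genes tested. That count was 2 in the fit of all 12 libraries, 6 with quantile scaling, and 7 without P28-KO library 1 or 4. It was 14 without P28-KO library 2, and 13 without P28-WT library 4 or with Ddx3y as a covariate. In bulk tissue, fewer cells of a type and less RNA per cell cannot be told apart. Mbp was chosen after its values were seen.

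Genes of oligodendrocyte precursors were lower more often than higher. Of 10 precursor genes 6 were lower and 2 higher, with a median of -0.36, beside 34% lower and 24.3% higher over all genes tested. Over the alternative fits 5 to 7 were lower. Pdgfra, the growth factor receptor that marks these cells, was at 9.12, 8.17, 9.28 and 10.4 RPKM in P28-KO against 18.3, 15.9, 16.2 and 18.8 in P10-WT (log2 fold change -0.90, SE 0.09, adjusted p = 1.66e-05, limma), without overlap. Ptprz1, a receptor phosphatase gene, was at 15.9, 17.6, 22.05 and 22.8 RPKM against 74.3, 57.9, 50.8 and 61.01, and Lhfpl3 at 7.95, 8.28, 8.85 and 10.7 against 17.1, 17.2, 14.8 and 17.4. Vcan, a matrix proteoglycan, fell to 1.44, 1.31, 1.496 and 1.68 RPKM in P28-KO, against 11.8, 7.54, 7.22 and 6.45 in P10-WT. Sox10, the factor shared by precursors and mature oligodendrocytes, was higher, at 16.3, 20.95, 17.1 and 15.8 RPKM against 9.54, 11.04, 11.1 and 11.99.

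Astrocyte and microglia genes were mostly higher in P28-KO. Of 18 astrocyte genes 12 were higher and 2 lower (median 0.40), beside 24.3% higher and 34% lower over all genes tested. In P28-WT 10 were higher and 1 lower. Aldoc, a glycolytic enzyme of astrocytes, was at 247, 286, 233 and 210.2 RPKM in P28-KO and 54.96, 79.5, 83.4 and 89.2 in P10-WT, and Clu, clusterin, at 366, 396, 341 and 330.1 in P28-KO and 76.2, 117.1, 125 and 139 in P10-WT. S100b, a calcium-binding protein, was at 37.7, 30.4, 34.3 and 33.2 RPKM in P28-KO against 3.56, 9.58, 9.09 and 9.26 in P10-WT, where library 1 was the lowest. Gjb6, which encodes connexin 30 of astrocyte gap junctions, had the smallest p of the list, at 22.98, 19.01, 19.4 and 17.6 RPKM against 3.40, 4.65, 5.44 and 4.88 (log2 fold change 2.09, SE 0.14, adjusted p = 1.13e-06, limma). Thus each of these 4 genes was above the day 10 range in every null library. The members that fell were Aqp4, the water channel of astrocyte endfeet, at 14.9, 15.3, 17.9 and 18.5 RPKM against 23.04, 29.1, 24.6 and 31.9, and Gfap, the intermediate filament of astrocytes, at 27.9, 37.5, 32.7 and 30.7 against 40.4, 36.2, 45.6 and 50.5. For Gfap one null library lay within the day 10 range, and P28-WT against P10-WT gave -0.24 (adjusted p = 0.078, limma).

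All 16 microglia genes were higher, with a median of 0.96 and no overlap between the groups, and all 16 were higher in P28-WT as well (median 0.92). In P28-KO against P10-WT, 24.3% of all genes tested were higher and 54.8% did not overlap. Ctss, the lysosomal protease cathepsin S, was at 30.04, 27.7, 22.4 and 22.6 RPKM in P28-KO and 5.05, 8.44, 7.41 and 7.22 in P10-WT, a log2 fold change of 1.87 (SE 0.15, adjusted p = 4.36e-06, limma). C1qb, a chain of complement C1q, was at 32.7, 33.7, 23.5 and 25.1 RPKM against 9.28, 13.5, 12.7 and 14.5, and Csf1r, the receptor microglia need for survival, at 23.4, 27.1, 21.4 and 21.4 against 8.25, 12.4, 11.9 and 13.7. Every null library was thus above every day 10 library, and library 1 was the lowest of P10-WT for each of these 3 genes. Cx3cr1 and Aif1, further markers of microglia, had log2 fold changes of 0.64 and 0.75.

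**Figure D3:**
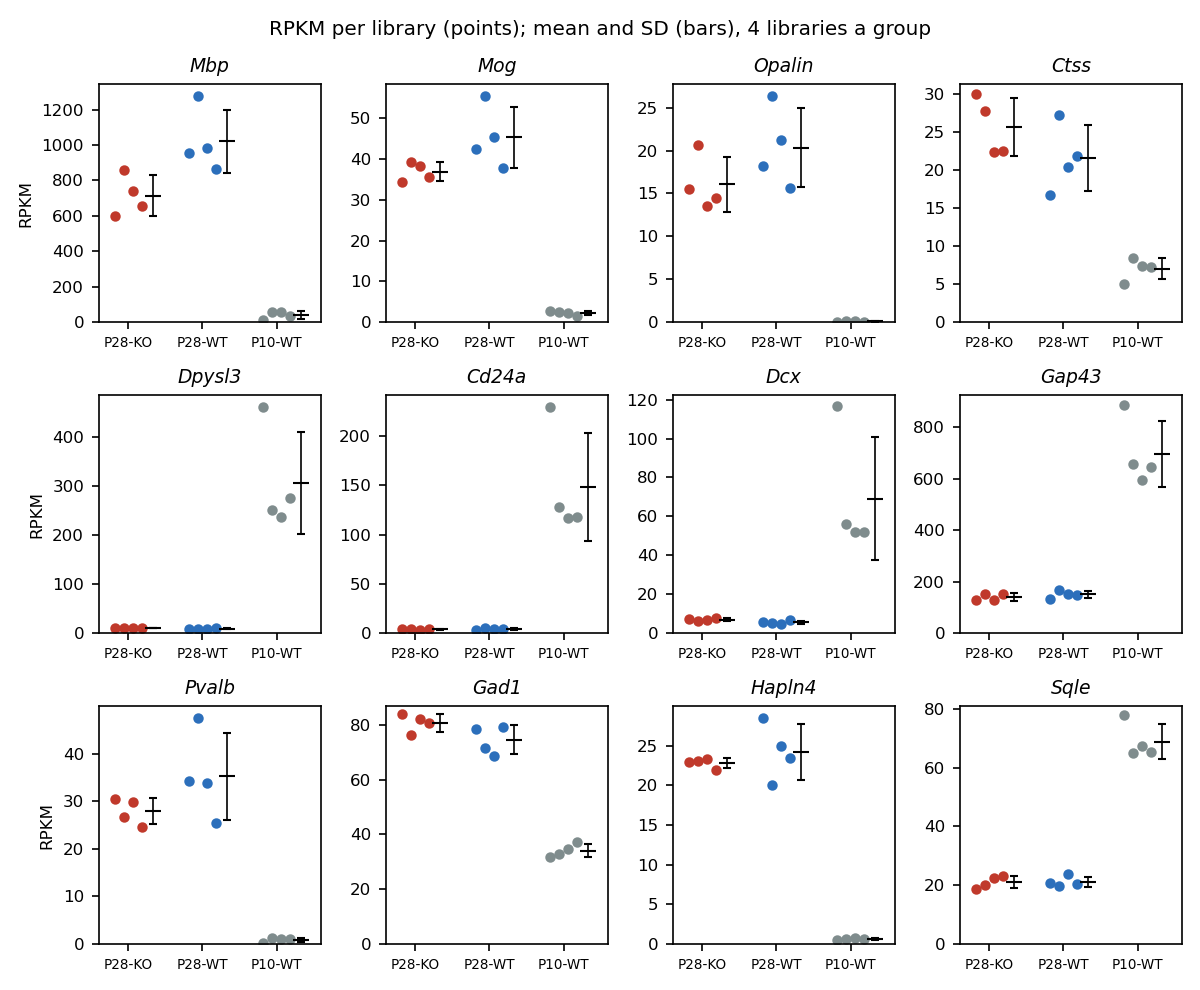
RPKM (y axis, from 0) of 12 genes in each P28-KO, P28-WT and P10-WT library (points, 4 a group), with the mean and SD as bars. Mbp, Mog, Opalin, Ctss, Pvalb, Gad1 and Hapln4 are higher in P28-KO than in every P10-WT library, while Dpysl3, Cd24a, Dcx, Gap43 and Sqle are lower.

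Genes of the growth cone, axon guidance and adhesion were lower in the null cortex almost throughout. Of 46 measured genes 42 were lower, 1 was higher and 3 were not called, with a median log2 fold change of -1.11, against 34% lower among all genes tested, and the same numbers, 42, 1 and 3, held for P28-WT. Dpysl3, a collapsin response mediator protein of the growth cone, was at 9.55, 10.7, 9.97 and 10.3 RPKM in P28-KO, 7.58, 7.28, 7.91 and 9.50 in P28-WT and 462, 250.2, 237 and 275 in P10-WT, a log2 fold change of -4.85 against P10-WT (SE 0.18, adjusted p = 3.26e-08, limma). The related Dpysl5 was at 7.89, 10.1, 8.13 and 8.93 RPKM in P28-KO against 249, 161, 157 and 177 in P10-WT. Stmn2, which binds tubulin in extending axons, fell to 181, 172, 168 and 179 RPKM in P28-KO, against 876, 813, 746 and 811 in P10-WT. For these 3 genes all 4 null libraries lay far below all 4 P10-WT libraries. Gap43, the membrane protein of the growth cone, was at 128, 153, 127 and 153 RPKM against 886, 659, 594 and 647, and Dcx, doublecortin of migrating neurons, at 7.31, 5.96, 6.75 and 7.52 against 116.6, 55.8, 51.99 and 51.98. Library 1 was again the highest of P10-WT for Gap43 and Dcx, which were named after their values were seen. Without it the log2 fold change was -4.63 for Dpysl3 and -2.94 for Dcx, against -4.85 and -3.22 with it. Over the list, RPKM summed to 2227 to 2399 in P28-KO, 2353 to 2674 in P28-WT and 7589 to 10560 in P10-WT, and without P10-WT library 1, 41 genes were lower and 1 higher. The gene that rose was Unc5a, a netrin receptor, at 26.6, 34.1, 26.96 and 23.1 RPKM in P28-KO against 20.7, 18.8, 23.4 and 20.8 in P10-WT, with overlapping ranges (log2 fold change 0.39, adjusted p = 0.0124, limma).

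Cell division genes were low at day 28 in the null cortex. Of 18 measured genes of cell cycle control or replication 16 were lower and none higher (median -1.65), beside 34% lower over all genes tested. Mcm6, a subunit of the replicative helicase, was at 2.16, 1.7996, 2.08 and 2.20 RPKM in P28-KO against 7.63, 6.97, 7.47 and 5.85 in P10-WT, and Rrm2, a subunit of ribonucleotide reductase, at 0.951, 1.08, 1.14 and 1.19 against 7.99, 5.66, 4.78 and 4.69. Top2a, the topoisomerase of dividing cells, was at 0.187, 0.357, 0.350 and 0.351 RPKM against 4.42, 2.98, 2.51 and 2.26, and Cdk1, the mitotic kinase, at 0.0961, 0.133, 0.0396 and 0.148 against 1.91, 1.24, 1.59 and 1.15. No P28-KO library reached the day 10 range for any of the 4, whose log2 fold changes ran from -2.95 for Cdk1 to -1.71 for Mcm6. Only 8 genes of this list had a mean of at least 2 RPKM, with a median of -0.74, and 6 of them were lower.

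The enzymes of cholesterol synthesis fell together as well. Of 23 genes 20 were lower and 1 higher, beside 34% and 24.3% over all genes tested, with a median of -0.91. In P28-WT 22 were lower and 1 higher. Sqle, squalene epoxidase, was at 18.6, 20.2, 22.6 and 23.2 RPKM in P28-KO against 77.9, 65.1, 67.4 and 65.2 in P10-WT, a log2 fold change of -1.70 (SE 0.09, adjusted p = 3.21e-07, limma). Dhcr7, the reductase of the last step, was at 11.5, 13.2, 13.4 and 12.998 RPKM against 27.5, 25.5, 26.8 and 27.1, and Nsdhl, a sterol dehydrogenase, at 7.43, 7.91, 8.24 and 8.99 against 23.2, 20.1, 19.1 and 18.98. Cyp51, the sterol demethylase, was at 14.3, 12.8, 15.2 and 13.97 RPKM against 34.3, 29.7, 28.997 and 28.7. No null library reached the day 10 range for any of these 4 enzymes. Ebp, a sterol isomerase, was the member that rose, at 7.31, 7.25, 6.38 and 6.95 RPKM against 4.46, 5.38, 5.72 and 5.94.

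Immediate early genes, which neurons induce within minutes to hours of activity, had the second largest median of the lists. Of 23 genes 20 were higher in P28-KO, 1 was lower and 2 were not called, beside 24.3% higher over all genes tested. Their median log2 fold change was 3.05. Arc, a cytoskeletal protein of active synapses, was at 366, 224, 303 and 111.3 RPKM in P28-KO, 126, 242, 297 and 99.1 in P28-WT and 2.79, 4.27, 5.22 and 6.07 in P10-WT. Npas4, an activity-dependent transcription factor, was at 62.5, 48.8, 67.3 and 40.9 RPKM in P28-KO, 30.8, 36.8, 50.6 and 31.3 in P28-WT and 3.19, 2.97, 3.47 and 3.55 in P10-WT. In both groups at day 28 these levels varied between libraries but stayed far above day 10. For Npas4 the log2 fold change was 3.99 against P10-WT (SE 0.14, adjusted p = 3.23e-08, limma) and 0.55 against P28-WT (SE 0.19, adjusted p = 0.382). Ptgs2, the inducible cyclooxygenase, was at 8.65, 5.80, 6.86 and 5.29 RPKM in P28-KO, 3.83, 4.23, 3.99 and 3.50 in P28-WT and 0.201, 0.257, 0.123 and 0.283 in P10-WT. Its 4 null values all lay above the 4 P28-WT values, with a log2 difference of 0.74 (SE 0.14, unadjusted p = 0.000374 and adjusted p = 0.382, limma), which did not pass. The zinc finger factor gene Egr2 was at 35.4, 21.5, 28.03 and 8.95 RPKM in P28-KO against 0.327, 0.268, 0.418 and 0.497 in P10-WT, the AP-1 subunit gene Fosb at 23.02, 14.4, 17.1 and 6.75 against 0.125, 0.145, 0.211 and 0.992, and Ier5 at 35.5, 31.4, 35.05 and 23.4 against 6.44, 6.58, 7.76 and 6.55. For Arc, Egr2, Fosb and Npas4 alike, library 4 was the lowest of P28-KO.
Bdnf, the neurotrophin, was at 6.13, 4.72, 5.27 and 4.82 RPKM in P28-KO against 1.35, 1.53, 1.95 and 2.34 in P10-WT (log2 fold change 1.52, SE 0.16, adjusted p = 2.51e-05, limma), and P28-WT gave 1.27. Nr4a3, an orphan nuclear receptor, went the other way, at 7.50, 5.50, 6.97 and 4.38 RPKM in P28-KO, 2.62, 1.83, 5.08 and 3.16 in P28-WT and 16.04, 7.06, 10.3 and 10.3 in P10-WT. Its null values overlapped the day 10 range in 1 library, and the log2 fold change was -0.80 (SE 0.23, adjusted p = 0.0127, limma). Over the list, RPKM summed to 813 to 1972 in P28-KO, 770 to 1576 in P28-WT and 178 to 216 in P10-WT. Against P28-WT the median log2 difference was 0.41, none of the 23 was called, and 6 were higher at an unadjusted p under 0.05, where 4.27% of all genes were. The median was 0.19 without P28-KO library 1 and 0.64 without P28-KO library 4, and the count was 4 without P28-KO library 1 or 3 or P28-WT library 4 or with no filter, 15 without P28-KO library 4, and 11 in the regularized test and with the replicate block. The time from the animal's last light or handling to dissection is not given in the sources used here, and its part in these levels was not tested.

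The 250 bases before the start of 3 of these genes are shown (RefSeq, GRCm38, 5′ to 3′ on the gene's strand) because they moved together and hold the core of the CREB site, the letters TGACG on either strand, in capitals. That motif was found in the promoter windows, from 250 bases before to 50 after the start, of 12 of the 18 matched immediate early genes (66.7%), beside 21% of 27025 promoters, and the full palindrome TGACGTCA, which contains it, in 2 of the 18 beside 1.88%. The 27025 promoters include those of genes not tested here, so the sets compared are unlike. A match is a description of the letters and not evidence of binding.
Fos (chr12:85473640-85473889): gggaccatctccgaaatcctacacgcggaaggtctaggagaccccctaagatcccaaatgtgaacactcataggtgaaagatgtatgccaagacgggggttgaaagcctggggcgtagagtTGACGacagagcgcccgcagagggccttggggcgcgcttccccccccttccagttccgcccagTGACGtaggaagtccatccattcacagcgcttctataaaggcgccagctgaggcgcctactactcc
Fosb (chr7:19310046-19310295): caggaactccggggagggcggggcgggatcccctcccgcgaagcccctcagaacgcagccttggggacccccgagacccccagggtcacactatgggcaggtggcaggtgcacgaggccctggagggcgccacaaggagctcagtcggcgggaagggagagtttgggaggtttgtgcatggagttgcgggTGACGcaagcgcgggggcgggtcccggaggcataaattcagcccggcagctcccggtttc
Npas4 (chr19:4989972-4990221): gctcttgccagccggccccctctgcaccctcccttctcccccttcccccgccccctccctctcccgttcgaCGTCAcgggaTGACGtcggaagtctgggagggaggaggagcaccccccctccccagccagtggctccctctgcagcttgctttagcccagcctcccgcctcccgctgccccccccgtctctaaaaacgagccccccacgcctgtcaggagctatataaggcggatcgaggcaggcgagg
Fos, chosen for its promoter after its values were seen, was at 122, 80.6, 112.98 and 45.7 RPKM in P28-KO and 1.44, 2.22, 3.11 and 5.79 in P10-WT, a log2 fold change of 4.88 (SE 0.40, adjusted p = 4.09e-06, limma).

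Genes of the circadian clock were mostly higher in P28-KO. Of 21 genes 14 were higher and 1 lower, beside 24.3% and 34% over all genes tested, with a median of 0.84. Per2, a repressor in the core loop, was at 9.10, 8.46, 10.1 and 6.99 RPKM in P28-KO against 2.74, 2.68, 2.68 and 2.81 in P10-WT, and Bhlhe40, a repressor that is also induced by activity, at 51.8, 42.5, 43.2 and 27.9 against 7.28, 7.18, 6.37 and 8.38. Dbp, an output factor of the clock, was at 52.7, 76.6, 38.9 and 41.6 RPKM against 7.01, 11.8, 14.1 and 12.1, and the related Tef at 80.1, 84.6, 81.7 and 73.6 against 23.2, 37.5, 37.5 and 35.2. Each null library was thus above each day 10 library for these 4 genes. The kinase gene Csnk1e was lower, at 20.8, 23.9, 21.9 and 20.1 RPKM against 42.3, 30.9, 32.8 and 31.4. CACGTG, the E-box that clock factors bind, was in the promoter windows of 5 of 18 matched clock genes (27.8%), beside 7.24% of all promoters, of genes tested here or not. The clock time of dissection is not given in the sources used here, and its part in these levels was not tested.

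**Figure D4:**
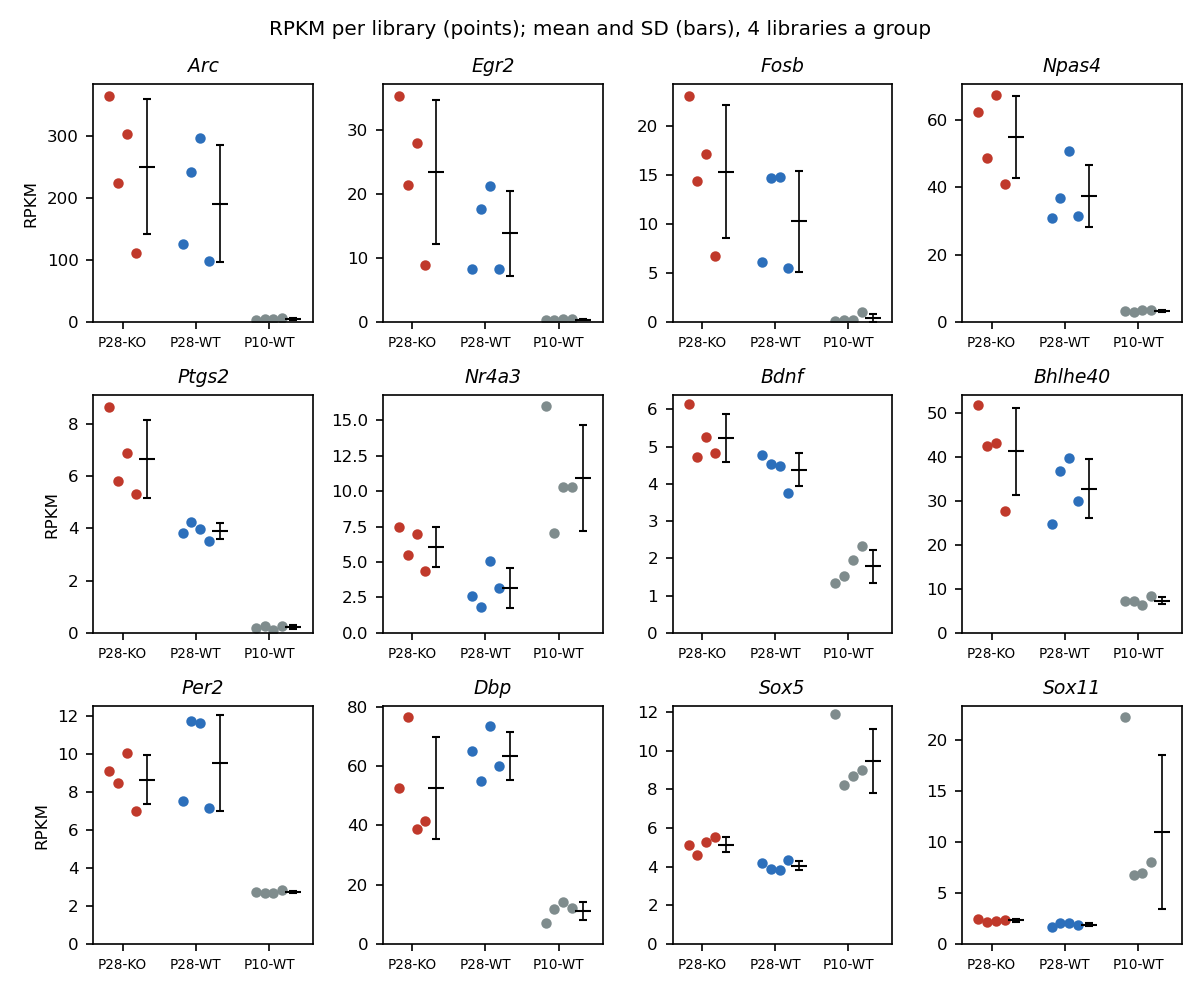
RPKM (y axis, from 0) of 12 genes in each P28-KO, P28-WT and P10-WT library (points, 4 a group), with the mean and SD as bars. Immediate early and clock genes such as Arc, Npas4, Bhlhe40 and Dbp are above the day 10 range in every day 28 library, Nr4a3 and Sox11 are lower at day 28, and Sox5 in P28-KO lies between P28-WT and P10-WT.

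Genes listed for interneurons were mostly higher in the null cortex. Of 13 genes of fast-spiking parvalbumin interneurons 10 were higher and 2 lower, beside 24.3% and 34% over all genes tested. Their median was 0.91, and in P28-WT 8 were higher and 3 lower. Pvalb, the calcium buffer that names these cells, was at 30.5, 26.8, 29.9 and 24.5 RPKM in P28-KO, 34.4, 47.6, 33.9 and 25.4 in P28-WT and 0.170, 1.27, 0.946 and 0.975 in P10-WT, with every day 28 library far above day 10. Gad1, the main enzyme of GABA synthesis, was at 84.03, 76.4, 82.2 and 80.8 RPKM in P28-KO against 31.8, 32.9, 34.6 and 37.2 in P10-WT (log2 fold change 1.24, SE 0.07, adjusted p = 3.99e-07, limma). Kcnc1 and Kcnc2, the fast potassium channels that allow high firing rates, had log2 fold changes of 1.17 and 1.21. The 2 lower members, Lhx6 at 5.11, 6.21, 5.78 and 5.33 RPKM against 13.96, 8.63, 7.72 and 9.35 and Sox6 at 2.80, 2.37, 2.75 and 2.84 against 3.95, 4.10, 3.87 and 3.97, are transcription factors that specify these cells in the embryo.
Of 13 genes of other interneurons 7 were higher and 4 lower, beside 24.3% higher and 34% lower over all genes tested. Npy, a neuropeptide, was at 134, 122, 106.3 and 110.2 RPKM in P28-KO against 42.6, 46.1, 40.6 and 47.9 in P10-WT, Cck, another, at 301, 293, 262 and 242 against 60.8, 82.3, 118 and 101.3, and Lamp5, a membrane protein of neurogliaform cells, at 81.04, 66.6, 74.9 and 79.5 against 3.21, 14.8, 13.8 and 12.4. Htr3a, a serotonin receptor channel, was at 3.19, 4.53, 3.67 and 3.65 RPKM against 1.60, 1.25, 1.44 and 1.39. In bulk tissue the part of interneurons in these levels, Cck and Lamp5 included, cannot be told from that of other cells. Both classical peptides of further classes, Sst and Vip, were higher too, with log2 fold changes of 0.63 and 1.96. Reln, the secreted protein of early-born cells, fell to 6.16, 6.46, 6.73 and 7.35 RPKM in P28-KO, against 22.7, 17.4, 17.5 and 18.2 in P10-WT, Calb2, calretinin, had a log2 fold change of -1.33 and Chodl one of -2.11.

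Synaptic vesicle genes were mostly higher. Of 23 genes 17 were higher and 2 lower in P28-KO, beside 24.3% and 34% over all genes tested, with a median of 0.47. In P28-WT 13 were higher and 3 lower, with a median of 0.64. Snap25, a SNARE of vesicle fusion, was at 1002, 927, 976 and 999 RPKM in P28-KO against 272, 386, 358 and 405 in P10-WT, and Vamp1, a vesicle SNARE, at 29.2, 28.05, 30.4 and 25.2 against 3.37, 6.67, 5.94 and 6.13. Bsn, a scaffold of the active zone, was at 34.4, 34.2, 38.9 and 36.999 RPKM against 18.4, 18.98, 20.7 and 19.8, and Sv2b at 94.8, 83.9, 90.2 and 94.5 against 45.3, 54.2, 53.3 and 58.7. For these 4 genes no null library overlapped the day 10 range. Slc17a6, the vesicular glutamate transporter of thalamic and young neurons, fell to 5.25, 5.03, 5.96 and 4.81 RPKM in P28-KO, against 17.6, 12.3, 15.5 and 17.5 in P10-WT, and Syt4, a synaptotagmin, had a log2 fold change of -0.65.
Among 15 genes of neurons at large, 6 were higher and 4 lower, beside 24.3% higher and 34% lower over all genes tested. Eno2, neuronal enolase, was at 262, 285, 246 and 250.1 RPKM in P28-KO against 64.5, 97.4, 92.6 and 95.4 in P10-WT, Camk2a, the postsynaptic kinase, at 567, 585, 591 and 562 against 94.6, 173, 169.6 and 165, and Slc17a7, the cortical glutamate transporter of vesicles, at 595, 672, 571 and 569 against 159.8, 308, 309 and 310.2. Library 1 was the lowest of P10-WT for these 3 genes. Tubb3, a tubulin of young neurons, fell to 181, 222, 178 and 176 RPKM in P28-KO, against 1008, 681, 664 and 786 in P10-WT, and Map2, a dendritic protein, had a log2 fold change of -0.66.

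Glutamate and GABA receptor genes were called in both directions, 7 higher and 5 lower of 15 and 5 higher and 4 lower of 14, beside 24.3% higher and 34% lower over all genes tested. Grin2b, the NMDA receptor subunit that prevails early, was at 1.97, 2.23, 4.10 and 4.42 RPKM in P28-KO, 2.24, 0.560, 0.985 and 2.77 in P28-WT and 6.61, 5.15, 5.78 and 5.01 in P10-WT. Grin2a, the subunit that joins later, was at 1.67, 1.90, 2.68 and 2.29 RPKM in P28-KO, 2.15, 0.325, 0.973 and 1.39 in P28-WT and 0.912, 1.06, 1.03 and 1.12 in P10-WT. Against P10-WT, Grin2b fell by 0.88 (SE 0.24, adjusted p = 0.00932, limma) and Grin2a rose by 0.96 on the log2 scale (SE 0.16, adjusted p = 0.000436), whereas Grin2a in P28-WT had a log2 fold change of -0.02 (adjusted p = 0.966). The difference between P28-KO and P28-WT was 0.99 for Grin2a and 1.06 for Grin2b and did not pass (adjusted p = 0.397 and 0.394, limma). P28-WT library 2 was the lowest of its group for both, and the 12-library fit gave Grin2b an adjusted p of 0.0687 against P10-WT.
Grin2c rose, at 10.3, 13.4, 10.6 and 10.1 RPKM in P28-KO against 1.08, 1.97, 2.80 and 3.28 in P10-WT, as did the AMPA receptor genes Gria3 (1.15 on the log2 scale) and Gria4 (0.44), while Grin3a (-1.53), Grin2d (-1.32) and the kainate receptor gene Grik1 (-0.71) fell. Gabrd, a subunit of extrasynaptic GABA-A receptors, was at 34.3, 28.7, 29.8 and 27.2 RPKM in P28-KO against 3.38, 8.12, 9.09 and 8.004 in P10-WT. Gabra5 was lower, at 13.3, 15.9, 13.6 and 16.3 RPKM against 53.2, 36.8, 37.2 and 47.8. Slc12a5, the chloride exporter of mature neurons, was at 105, 112.9, 107 and 106.4 RPKM in P28-KO against 43.8, 60.7, 65.7 and 60.5 in P10-WT, a log2 fold change of 0.91 (SE 0.11, adjusted p = 6.77e-05, limma). The chloride importer Slc12a2 rose less, by 0.34 (adjusted p = 0.00171, limma), and P28-WT had 0.90 for Slc12a5 and 0.35 for Slc12a2.

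Voltage-gated sodium and potassium channels were higher in 16 of 23 genes and lower in 5, beside 24.3% and 34% over all genes tested. Their median was 0.62. Scn4b, a beta subunit of sodium channels, was at 4.35, 2.98, 4.08 and 3.02 RPKM in P28-KO against 0.130, 0.389, 0.247 and 0.326 in P10-WT. Scn3a and Scn3b, a sodium channel and a beta subunit of the young brain, went down, by 1.25 and 1.18 on the log2 scale, and Kcnq3, a subunit of the M-channel, by 0.87.
Of 10 perineuronal net and matrix genes 3 rose and 5 fell, beside 24.3% higher and 34% lower over all genes tested. Hapln4, a link protein of mature nets, was at 22.96, 23.1, 23.3 and 21.9 RPKM in P28-KO against 0.537, 0.636, 0.781 and 0.646 in P10-WT (log2 fold change 4.94, SE 0.10, adjusted p = 1.15e-09, limma), and Hapln2, a link protein at nodes of Ranvier, at 2.78, 5.08, 3.15 and 2.94 against 0.192, 0.0726, 0.146 and 0.181. Tnc, tenascin C of the immature matrix, fell to 0.550, 1.10, 0.972 and 1.20 RPKM in P28-KO, against 21.4, 11.1, 9.57 and 11.2 in P10-WT, and Ncan, neurocan, to 44.1, 44.9, 49.4 and 46.998, against 121, 86.9, 87.2 and 105. Each of these 4 genes was apart between the groups. Acan, the aggrecan core of the nets, was near 0.5 RPKM in both groups (log2 fold change -0.09, adjusted p = 0.67, limma).

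Regulators of chromatin and transcription were lower in 24 of 29 genes and higher in 1, beside 34% and 24.3% over all genes tested. Their median was -0.69. Tet1, a methylcytosine oxidase, was at 1.11, 1.03, 1.46 and 1.54 RPKM in P28-KO against 3.79, 4.44, 4.22 and 4.14 in P10-WT, and Dnmt3a, the methyltransferase of young neurons, at 13.6, 14.3, 14.9 and 14.2 against 26.2, 35.1, 38.1 and 36.2. Hdac2, a histone deacetylase, was at 32.5, 31.2, 36.8 and 36.6 RPKM against 76.6, 65.5, 63.5 and 56.9, and Bcl11a, a zinc finger factor, at 25.9, 26.1, 25.8 and 24.8 against 49.8, 42.6, 54.5 and 46.4. None of the 4 overlapped between the groups. Tet2, a relative of Tet1, was the member that rose, by 0.28 on the log2 scale (adjusted p = 0.0109, limma).
Ribosomal protein genes fell in 19 of 24 cases with none higher (median -0.50), beside 34% lower over all genes tested. In P28-WT 10 fell and 1 rose. Rplp0 was at 80.5, 83.3, 73.9 and 67.8 RPKM in P28-KO against 198, 161, 164 and 173 in P10-WT, and Rps2 at 32.9, 49.4, 26.1 and 28.8 against 64.9, 67.7, 80.4 and 64.4. Against P28-WT, 23 of the 24 were lower in sign, beside 7836 of 13927 genes tested, with a median log2 difference of -0.18, and 0 were called by limma, 1 at an unadjusted p under 0.05. The median was -0.06 without P28-WT library 2, with 6 of the 24 then higher in sign, -0.27 without P28-WT library 4, -0.09 with quantile scaling and -0.08 with the GC and length trend removed. Subunits of the respiratory chain were called in few cases, beside 58.3% of all genes tested. Of 24 subunits 4 were higher, 2 lower and 18 not called, with Sdha of complex II higher by 0.68 on the log2 scale. Lysosomal genes were lower in 1 of 22 and higher in 13, beside 34% and 24.3% over all genes tested. The glucosidase gene Gaa was at 73.1, 89.4, 68.7 and 68.4 RPKM in P28-KO against 31.1, 31.5, 34.5 and 32.98 in P10-WT, and the peptidase gene Tpp1 at 16.9, 17.7, 17.96 and 17.1 against 6.85, 8.84, 8.49 and 8.83. Of 7 long nuclear RNAs, Neat1 (1.77), Malat1 (1.10) and Snhg11 (0.63) rose and Rian (-0.81) and Miat (-0.35) fell, all on the log2 scale.

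Genes of vessels went both ways, and those of mural and meningeal cells mostly fell. Of 15 endothelial genes 5 were higher and 6 lower, beside 24.3% higher and 34% lower over all genes tested. Among the higher ones were the barrier transporter genes Slc2a1, at 40.2, 38.5, 33.8 and 29.2 RPKM in P28-KO against 11.2, 15.9, 13.8 and 15.3 in P10-WT, and Slco1a4, at 12.99, 11.2, 12.1 and 14.1 against 1.36, 3.70, 2.83 and 3.27. The 6 lower ones include Kdr, the receptor of the growth factor VEGF, at 2.11, 2.83, 3.18 and 3.63 RPKM against 5.16, 5.45, 5.67 and 5.69, and Mfsd2a, a lipid transporter, with -0.49. The endothelial adhesion gene Pecam1 was not called (0.04, adjusted p = 0.765, limma), and without P10-WT library 3 its log2 fold change was -0.05. Of 16 mural and meningeal genes 10 were lower and none higher, with Col3a1, a fibrillar collagen, at 1.19, 1.71, 1.20 and 1.37 RPKM in P28-KO against 9.07, 7.67, 7.31 and 6.99 in P10-WT and Igf2, a growth factor of the meninges, at 17.2, 20.1, 17.8 and 16.9 against 45.2, 50.4, 40.8 and 45.9. Markers of other tissue were low: 3 of 6 choroid plexus genes were measured and Sostdc1 was lower (-3.08), with 1 gene also called higher without P28-KO library 1 or P10-WT library 1, Ttr was at 0.0250 to 1.97 RPKM in P28-KO and at 0 to 0.960 in P10-WT, and of 3 blood cell genes Alas2 was higher (0.89), with 2 higher without P28-KO library 3.
Markers of cortical layers were called in both directions. Their shares lay near those over all genes tested, 24.3% higher and 34% lower. Upper layer genes had 4 higher and 3 lower of 11, such as Calb1, calbindin, at 46.2, 36.98, 45.3 and 48.2 RPKM in P28-KO against 11.6, 16.7, 15.4 and 14.4 in P10-WT, and Mdga1, an adhesion protein, at 3.21, 3.71, 3.67 and 4.10 against 19.2, 14.9, 13.7 and 14.3. Layer 5 genes had 3 higher and 4 lower of 10, and layer 6 and subplate genes 3 higher and 6 lower of 13, such as the neurotensin receptor gene Ntsr1, at 2.601, 4.95, 3.60 and 3.58 RPKM against 17.6, 12.8, 13.7 and 14.02. Of 16 genes of striatum, hippocampus and thalamus, which a dissection could carry over, 2 were higher and 6 lower, the lower share again near that over all genes. Ppp1r1b, the signalling protein DARPP-32, was at 51.2, 51.9, 40.1 and 32.8 RPKM in P28-KO and 4.26, 5.33, 6.45 and 5.01 in P10-WT, whereas Drd2 and Rgs9, other striatal markers, had log2 fold changes of -0.91 and -0.82.

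Predicted targets of miR-132-3p were mostly lower in the null cortex than at day 10. In a list of 181 genes with a predicted miR-132-3p site and a fall with age, 179 were tested, 151 were lower in P28-KO, none was higher and 28 were not called, with a median of -0.56. Against P10-WT, P28-WT had 165 of 176 lower and a median of -0.68. For miR-212-5p the list holds 132 genes, of which 126 were tested and 105 lower, with a median of -0.53 (P28-WT 118 and -0.63). The study chose these lists for their fall with age on the wild-type libraries, P10-WT among them, so they are not independent evidence of direction. Without P10-WT library 1, 147 and 102 genes of the lists were lower. Over the alternative fits 125 to 151 and 94 to 105 were lower, and 0 to 2 and 0 to 1 were higher.
A list of 39 genes was chosen by the study as predicted miR-132-3p targets, lower with age and higher in the null, so that their position between the groups was used to choose them and is given as a description only. In P28-KO, 28 of the 39 were lower than in P10-WT, none was higher and 11 were not called, whereas in P28-WT 36 were lower and 3 were not called. Over the alternative fits, 23 to 28 of the 39 were lower in P28-KO and 0 to 2 were higher. B630005N14Rik was called higher, by 0.17 on the log2 scale, with the GC and length trend removed. The median log2 fold change was -0.41 in P28-KO and -0.71 in P28-WT. The mean of P28-KO lay between those of P28-WT and P10-WT in 36 genes and above P10-WT in 3, Ksr2, Mina and B630005N14Rik. In the plot of these genes the null point lies to the right of the P28-WT point for each gene plotted.

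**Figure D5:**
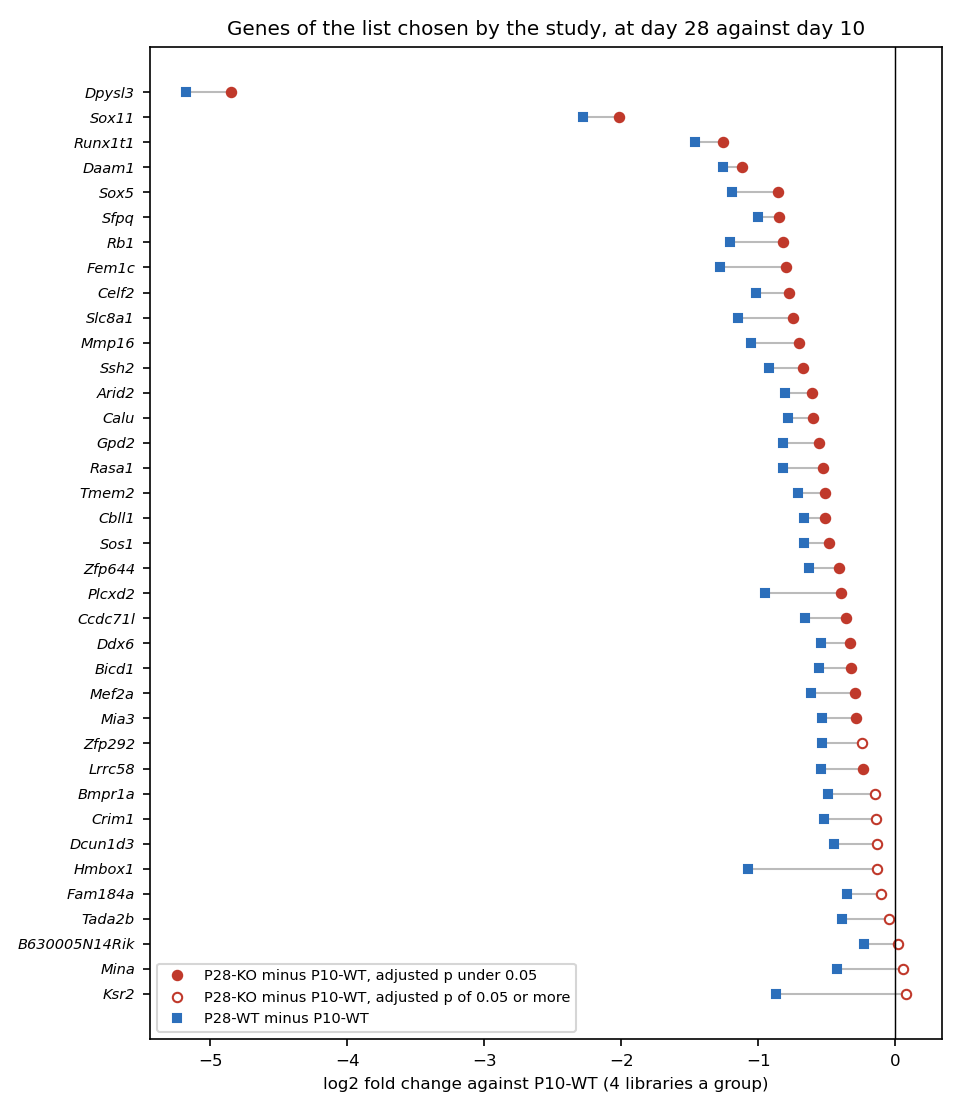
Log2 fold change against P10-WT (x axis, 4 libraries a group) of 37 of the 39 genes of the study's list, for P28-KO (red, filled at an adjusted p under 0.05 from limma, open otherwise) and P28-WT (blue squares). In P28-KO 27 of the 37 are filled, all at negative values, and the values run from -4.85 for Dpysl3 to 0.08 for Ksr2.

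Sites for the shared seed are shown from the 3′ untranslated regions of 4 of these genes (GRCm38, RefSeq, gene strand), 3 that fell in P28-KO and 1 that was not called, with the 7 letters GACTGTT that pair with bases 2 to 8 in capitals.
Sox5 (chr6:143833154-143833176): catacactGACTGTTattttaac
Sox11 (chr12:27335932-27335954): tttgaatgGACTGTTttgaaacg
Rasa1 (chr13:85215620-85215642): gaccatttGACTGTTcactgact
Tada2b (chr5:36474021-36474043): ttgggcgtGACTGTTttaaaaca
Both lists are of predicted miR-132-3p targets, so a high share with this site follows from how they were chosen and is given as a description. The longest annotated 3′ untranslated region held that site in 32 of the 39 genes (82.1%) and in 131 of the 179 tested genes of the longer list (73.2%), beside 1615 of 13156 tested genes with a region (12.3%). The regions of the lists are longer, with medians of 3303 and 2736 bases, beside 1108 bases over all tested genes. A match says only that the letters are present.
Sox5, a factor of corticofugal neurons, was at 5.14, 4.62, 5.25 and 5.54 RPKM in P28-KO against 11.9, 8.24, 8.71 and 8.98 in P10-WT (log2 fold change -0.86, and -1.19 in P28-WT). Sox11, a factor of young neurons, was at 2.46, 2.17, 2.26 and 2.30 RPKM in P28-KO, 1.64, 2.02, 2.03 and 1.89 in P28-WT and 22.3, 6.76, 6.92 and 8.01 in P10-WT, where library 1 stood apart, and its log2 fold change was -1.61 without that library and -2.01 with it. For both, all 4 null values lay below all 4 P10-WT values and above all 4 P28-WT values. The list was chosen for such a position, so this is a description. Rasa1, a GTPase-activating protein of Ras, was at 10.03, 9.01, 9.51 and 10.3 RPKM against 16.6, 13.3, 12.6 and 13.9, and Sos1, an exchange factor of Ras, at 5.93, 5.73, 6.29 and 6.44 against 9.98, 7.96, 8.13 and 8.20. The corepressor gene Runx1t1 (-1.26), the actin regulator gene Daam1 (-1.12) and, among the rest, the metalloproteinase gene Mmp16 (-0.70) and the mitochondrial enzyme gene Gpd2 (-0.56) fell, with -1.46, -1.26, -1.05 and -0.82 in P28-WT. Hmbox1, a homeobox gene, had the largest difference of the 39 between the day 28 groups, at 3.37, 2.82, 5.02 and 5.12 RPKM in P28-KO, 2.57, 1.12, 1.73 and 3.21 in P28-WT and 4.49, 4.25, 4.56 and 4.06 in P10-WT. The null values of Hmbox1 lay on both sides of the day 10 values, and its difference from P28-WT was 0.95 (SE 0.30, adjusted p = 0.382, limma). Tada2b, a subunit of histone acetyltransferase complexes, was at 7.79, 8.30, 8.58 and 8.66 RPKM in P28-KO, 6.85, 6.02, 6.96 and 6.38 in P28-WT and 8.65, 8.45, 9.20 and 8.09 in P10-WT, again with every null value above P28-WT and no call against P10-WT (-0.04, adjusted p = 0.623, limma).

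Beyond the deleted locus, limma called no difference between P28-KO and P28-WT, which does not show that the groups were alike. Of 13927 genes tested, 0 were higher (0%) and 2, Mir132 and Mir212, lower (0.0144%), while at an unadjusted p under 0.05 there were 1724 (12.4%), 594 of them higher (4.27%) and 1130 lower (8.11%), and the groups did not overlap in 5.49%. Without 1 library these unadjusted counts ran from 311 higher and 557 lower (without P28-WT library 3) to 968 higher (without P28-WT library 4) and 1987 lower (without P28-KO library 2), with 313 and 584 without P28-KO library 3, 366 and 581 without P28-KO library 4 and 898 higher without P28-KO library 2. The regularized test called 1 gene higher, Mir378b, beside the same 2 lower ones. By an unlike criterion, a posterior probability and not an adjusted p, the study called many more genes different between these groups. It chose its 39 listed genes as higher in the null on these same libraries. Their sign and small p follow in part from that choice and are given as a description. All 39 were higher in sign and 32 at an unadjusted p under 0.05, with a median of 0.29 and adjusted p of 0.382 to 0.450 (limma). Once the trend with GC content and length was removed, 18 were at an unadjusted p under 0.05 and the median was 0.16. Leaving out 1 library gave 17 (without P28-KO library 4) to 34, with 19 without P28-KO library 3 or P28-WT library 3. Across genes, the difference between the day 28 groups correlated with GC content (Pearson r = -0.309) and log2 transcript length (0.219), and that between P28-KO and P10-WT less so (0.121 and -0.061), as a description over 13835 and 13866 genes that share libraries.
The genes with the smallest p in that comparison were set beside their levels at day 10. Fzd4, a Wnt and norrin receptor, was at 1.49, 1.59, 1.56 and 1.40 RPKM in P28-KO, 0.970, 0.664, 0.914 and 0.759 in P28-WT and 1.13, 1.36, 1.43 and 1.23 in P10-WT, and Slc16a9, a carnitine transporter gene, at 1.19, 1.13, 0.937 and 0.955 in P28-KO, 0.463, 0.564, 0.538 and 0.587 in P28-WT and 1.23, 1.31, 1.14 and 1.05 in P10-WT. Against P10-WT neither was called in P28-KO (0.22 and -0.16, adjusted p = 0.159 and 0.373, limma), P28-WT had -0.59 and -1.01, and the differences between the day 28 groups, 0.81 and 0.85, had adjusted p of 0.382 and 0.382. Ccdc61, a gene of centrosomes and cilia, was lower in the null, at 3.23, 3.65, 3.28 and 3.46 RPKM in P28-KO, 5.28, 5.29, 5.36 and 4.63 in P28-WT and 6.09, 4.59, 4.84 and 4.65 in P10-WT, with a fold change of -0.54 against P10-WT (adjusted p = 0.00133, limma). Cecr5, Repin1 and Tmem215 were called higher than at day 10 in P28-KO, by 0.40, 1.17 and 1.21, and by 0.81, 1.59 and 1.77 in P28-WT.
Of the genes tested in both comparisons, only 2 were called in opposite directions in the day 28 groups against P10-WT, both small RNA genes. Mir378b was at 0.638, 1.96, 1.63 and 1.12 RPKM in P28-KO, 0, 0, 0.230 and 0.179 in P28-WT and 1.01, 0.195, 0.303 and 0.547 in P10-WT. Snora16a was at 2.57, 4.12, 3.09 and 2.78 RPKM in P28-KO, 1.48, 1.09, 1.95 and 1.61 in P28-WT and 2.21, 1.81, 2.97 and 1.98 in P10-WT, and for both genes P28-KO overlapped P10-WT. Against P10-WT the log2 fold changes were 1.31 for Mir378b and 0.47 for Snora16a in P28-KO, and -1.63 and -0.52 in P28-WT. The calls of both in P28-KO were lost without P28-KO library 2 (adjusted p = 0.068 and 0.111), P28-KO library 3 (0.0613 and 0.0803) or P10-WT library 2 (0.0592 and 0.115), those of Mir378b also without P10-WT library 3 (0.0558) and of Snora16a without P10-WT library 1 (0.0644) or 4 (0.103). Both calls were also lost with the replicate block (0.0507 and 0.06) and with Ddx3y as a covariate (0.0861 and 0.166), and that of Snora16a with no filter (0.0735), in the 12-library fit (0.0541) and with the GC and length trend removed (0.0554).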

How the data were processed

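RNA of visual cortex was sequenced from TruSeq libraries, 4 each of P28-KO, P28-WT and P10-WT. The authors deposited RPKM values per gene. Their methods name ELAND and RefSeq gene models with uniquely mapped reads, and the submitters' processing notes list CASAVA 1.8.2, SAMtools 0.1.19, Bowtie 0.12.8 and the build mm10. Reads of overlapping or near-identical genes can be split or lost by such counting. No counts were recovered, so depth is unknown. At the best of many steps tried, 45.9% to 71.8% of low values in a library came within 0.05 of a whole read. Chance would give 10% for a step set in advance, and more for the best of many, by an amount not found.

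Genes with a mean of at least 0.5 RPKM were kept, log2(RPKM + 0.1) was taken, which understates the change of low genes, and each pair of groups was fitted on its own libraries with limma 3.58.1 in R 4.3.3, with Benjamini-Hochberg adjustment over all genes tested. Python 3.11.15, pandas 2.3.3, numpy 2.4.6 and matplotlib 3.10.9 were used for the rest. The fit was tested on simulated data. Mature microRNA, promoter and untranslated region sequences came from RefSeq (GRCm38.p6). The small RNA libraries were not analysed here.

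The analysis was repeated with 0.01 or 1 added before the log, with the filter off or set at 2 RPKM, with median-ratio and quantile scaling, one fit of all 12 libraries, a regularized test, a replicate block, the trend with GC content and length taken out (known for 13866 genes), each library left out and, chosen after seeing the data, the Ddx3y level as a covariate.

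Genes named were the 10 higher and 10 lower with the largest called changes at a mean of at least 1 RPKM without overlap, up to 4 members of each list with the smallest p in its main direction and up to 3 in the other, the 8 higher and 8 lower with the smallest p between P28-KO and P28-WT, those called in opposite directions, and genes the study discusses, of which the text gives a part. Fos, Mbp, Gap43, Dcx, Sst, Vip, Cx3cr1, Aif1, Acan, Ttr, Pecam1, Xist and Ddx3y were added after their values were seen. Certain genes that the rules named are not reported here. The members, lists and rules were chosen with earlier results of these data known.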

Additional observations from a re-analysis of the deposited data

Results flagged for a closer look

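Within groups of 4 libraries, 50 of 484 sets of values had 1 library far from the other 3, measured by the gap to its nearest neighbour over the whole range against Dixon's 95% critical value for 4 values, which chance alone passes in about 1 in 20 groups. P10-WT library 1 held 29 of the 50, P28-KO library 2 held 9 and P28-KO library 4 held 5. All values below are RPKM.

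P10-WT library 1 was above the rest of its group for Alas2 at 2.50 (the others 1.81 to 1.85), Bcl11b at 14.1 (the others 8.36 to 9.24), Ccdc61 at 6.08 (the others 4.59 to 4.84), Cd24a at 230.2 (the others 117.2 to 128) and Csnk1e at 42.3 (the others 30.9 to 32.8). P10-WT library 1 was also above it for Cyp51 at 34.3 (the others 28.8 to 29.7), Daam1 at 30.2 (the others 20.9 to 21.6), Dcx at 116.6 (the others 51.98 to 55.8), Dpysl3 at 462 (the others 237 to 275) and Draxin at 12.1 (the others 1.53 to 2.43). P10-WT library 1 further stood above it for P2rx2 at 4.98 (the others 1.64 to 1.96), Reln at 22.7 (the others 17.4 to 18.2), Scn3a at 15.3 (the others 12.2 to 12.7), Sos1 at 9.98 (the others 7.96 to 8.20) and Sox11 at 22.3 (the others 6.76 to 8.01). P10-WT library 1 had its last high values for St8sia2 at 46.02 (the others 8.64 to 13.2), Tnc at 21.4 (the others 9.57 to 11.2), Trim67 at 48.7 (the others 14.5 to 18.2) and Ttr at 0.960 (the others 0 to 0.0623). P10-WT library 1 was below the rest of its group for Camk2a at 94.6 (the others 165 to 173), Egr1 at 7.603 (the others 22.5 to 24.2), Eno2 at 64.5 (the others 92.6 to 97.4), Ndufv1 at 53.9 (the others 61.6 to 62.7) and Neu4 at 0.409 (the others 1.43 to 1.49). P10-WT library 1 was also below it for S100b at 3.56 (the others 9.09 to 9.58), Sdha at 61.8 (the others 74.7 to 76.5), Slc17a7 at 159.8 (the others 308 to 310.2), Snhg11 at 184 (the others 229 to 229) and Tef at 23.2 (the others 35.2 to 37.5).

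P28-KO library 2 was above the rest of its group for Draxin at 0.211 (the others 0.0716 to 0.0939), Glb1 at 10.02 (the others 8.49 to 8.68), Grin2c at 13.4 (the others 10.1 to 10.6), Hapln2 at 5.08 (the others 2.78 to 3.15) and Miat at 92.4 (the others 80.4 to 82.4). P28-KO library 2 was also above it for Tubb3 at 222 (the others 176 to 181). P28-KO library 2 was below the rest of its group for Ddx6 at 18.9 (the others 22.96 to 23.2), Plcxd2 at 19.1 (the others 22.9 to 23.6) and Rasgrf2 at 24.8 (the others 30.9 to 31.4). P28-KO library 4 was above the rest of its group for Scn3b at 25.8 (the others 21.7 to 22.1), Tle4 at 13.04 (the others 12.1 to 12.2) and Tmem215 at 1.57 (the others 1.42 to 1.43). P28-KO library 4 was below the rest of its group for Bcl11a at 24.8 (the others 25.9 to 26.1) and Trpa1 at 0.0165 (the others 0.0695 to 0.0796). P28-KO library 1 was below the rest of its group for Top2a at 0.187 (the others 0.350 to 0.357).

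P10-WT library 3 was above the rest of its group for Ier5 at 7.76 (the others 6.44 to 6.58) and Igfn1 at 0.0283 (the others 0.00816 to 0.0106). P10-WT library 3 was below the rest of its group for Lhfpl3 at 14.8 (the others 17.1 to 17.4). P10-WT library 4 was above the rest of its group for Fosb at 0.992 (the others 0.125 to 0.210). P10-WT library 4 was below the rest of its group for Col1a1 at 9.89 (the others 13.6 to 14.3). P28-WT library 4 was below the rest of its group for Ccdc61 at 4.63 (the others 5.28 to 5.37).

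Mir132 and Mir212 differed between P28-KO and P28-WT, each with an adjusted p of 1.97e-09 from limma. Both lie in the deleted locus and were listed at 0 in every P28-KO library.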

How the results depend on the processing

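The counts of genes higher and lower in P28-KO than in P10-WT stayed within 1.5 times 3393 and 4752 in every alternative, at 3381 and 4738 with a pseudocount of 0.01, 4022 and 3944 with median-ratio scaling, 3681 and 4907 with the GC and length trend taken out, and 3119 and 4616 with Ddx3y as a covariate, an alternative chosen after seeing the data. Leaving out 1 library gave 3047 to 3312 higher and 4285 to 4815 lower genes. Between P28-KO and P28-WT 0 genes were higher and 2 lower in each alternative except the regularized test, with 1 higher. Of 212 named genes called, 196 kept the call in every setting in which they were tested. Some genes of low level were not tested at a mean of at least 2 RPKM. For cell cycle genes 6 were lower at a mean of at least 2 RPKM, for glutamate receptors 3 were lower in the fit of 12 libraries, and for GABA receptors and chloride transporters 8 were higher with the GC and length trend taken out.

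The named genes whose sign turned were not called in the comparison concerned before any alternative was applied. Against P10-WT, the log2 fold change became 0.00045 for Dcun1d3 once the GC and length trend was taken out, which also gave -0.0104 for Sos1 against P28-WT. It became 0.0354 for Tada2b with median-ratio and 0.0196 with quantile scaling, and 0.0734 for Hmbox1 with Ddx3y as a covariate. Leaving out 1 library gave -0.2506 to 0.0292 for Hmbox1 (the highest without P28-KO library 2), -0.087 to 0.913 for Mir7078 (the lowest without P10-WT library 2), -0.0257 to 0.116 for Mina and -0.0478 to 0.102 for Pecam1 (the lowest of both without P10-WT library 3), -0.337 to 0.0485 for Crim1 (the highest without P10-WT library 1), and -0.0102 to 0.0826 for B630005N14Rik (the lowest without P28-KO library 4, and -0.0029 without P10-WT library 3). The cause was not tested.

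With the replicate number as a block, 3143 genes were higher and 4340 lower in P28-KO than in P10-WT. Deviations of same-numbered libraries correlated at -0.154 to -0.0432, so no positive pairing by number was seen. Such correlations cannot exclude a shared litter or batch. The unknown depth and 4 libraries a group limit the precision of low genes.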
